A study of Caenorhabditis elegans with 2 samples.

Results

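The ceh genes of Caenorhabditis elegans, numbered members of the homeobox family, were examined as candidate binding targets of the nuclear hormone receptor NHR-25. The members were all protein-coding genes whose symbol is ceh followed by a number, except the Hox gene ceh-13, the engrailed gene ceh-16 and the Hox cofactor genes ceh-20, ceh-40 and ceh-60. This left 58 of 19985 protein-coding genes. A strict homeodomain signature in the recognition helix (tryptophan, phenylalanine, any residue, asparagine, any residue, arginine) was found in the translated coding sequence of 35 of the 58. It was found in 0 of 6 CUT genes, whose homeodomains differ there, and in 7 of 22 members placed in no class. RefSeq names the product of all 58 as a homeobox, homeodomain or ONECUT protein, but such names often repeat the gene symbol and are no separate check. NHR-25 binding was mapped by chromatin immunoprecipitation and sequencing (ChIP-seq) in whole hermaphrodites at the L4 larval stage, in 1 group of 2 biological replicates. The worms were of strain OP33, unc-119(ed3) III; wgIs33, in which a stable transgene supplies NHR-25 carrying GFP and FLAG at its C terminus, and the precipitation used an antibody to GFP. The promoter of the transgene is not stated, and whole worms mix all tissues, so binding in a few cells is diluted by the rest.

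Homeodomain proteins are transcription factors that bind DNA through a helical fold, and many ceh genes fix the identity of single neuron or muscle types. The classes differ in the domain that accompanies the homeodomain: CUT proteins carry cut repeats, POU proteins a POU-specific domain and LIM proteins zinc-binding LIM domains. NHR-25 is the worm NR5A receptor, related to fly FTZ-F1, and is known for roles in epidermal development and molting. NR5A receptors bind as monomers to a nuclear receptor half-site with a short extension on its 5′ side.

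The following sequences are parts of a thresholded peak and of weaker pooled peaks. They are on the plus strand of build ce11 as given by RefSeq for WBcel235. Of the ceh-38 peak, the strongest at any member, the stretch before the annotated transcript starts (chromosome II, 6951425 to 6951525) and the stretch inside the first intron (6951705 to 6951814) are shown, and the UTR between them is left out. The other 3 are windows of 100 bp on each side of the strongest pooled summit of a member below the threshold. The ceh-14 window (chromosome X, 7534061 to 7534261) is from the strongest such peak. The windows of ceh-31 (chromosome X, 3069866 to 3070066) and ceh-100 (chromosome II, 12603759 to 12603959) hold motifs. Capitals mark the nuclear receptor core AGGTCA in ceh-31 and the repeat GAGAGAG and the EOR-1 type site GAGACGCAG in ceh-100, all on the minus strand. The other stretches hold none of the motifs searched. The set was chosen after the values were seen.
ceh-38 upstream: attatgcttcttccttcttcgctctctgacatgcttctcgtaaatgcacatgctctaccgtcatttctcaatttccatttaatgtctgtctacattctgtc
ceh-38 intron: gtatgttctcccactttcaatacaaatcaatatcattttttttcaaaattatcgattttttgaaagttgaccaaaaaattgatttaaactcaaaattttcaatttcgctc
ceh-14: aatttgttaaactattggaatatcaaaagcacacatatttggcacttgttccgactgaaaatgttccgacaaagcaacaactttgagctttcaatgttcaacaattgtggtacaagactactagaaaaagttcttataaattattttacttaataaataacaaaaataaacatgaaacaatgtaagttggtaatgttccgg
ceh-31: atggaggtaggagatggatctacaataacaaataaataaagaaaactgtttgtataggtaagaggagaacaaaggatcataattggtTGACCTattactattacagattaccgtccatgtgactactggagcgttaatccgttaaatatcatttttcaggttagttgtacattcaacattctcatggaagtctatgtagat
ceh-100: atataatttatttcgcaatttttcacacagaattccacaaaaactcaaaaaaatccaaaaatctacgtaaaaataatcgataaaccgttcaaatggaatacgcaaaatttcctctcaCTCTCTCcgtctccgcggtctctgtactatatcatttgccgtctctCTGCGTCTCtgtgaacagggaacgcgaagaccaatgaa

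The authors deposited, for ce11, a peak list for each replicate (23929 and 30000 peaks), a list for the pooled replicates (30000 peaks) and a thresholded list of 1826 peaks that derives from the other 3. The replicate and pooled lists were deposited as peaks and background together, so their weaker entries are candidate peaks and are not in themselves evidence of binding. Each summit was given to the gene whose annotated protein-coding 5′ end was closest, if that was no more than 2 kb away. The signal of a peak is the authors' own value on a scale that is not stated, so it is given with its rank, where rank 1 is the strongest peak of a list. Read depth is unknown. The design holds no second condition and no control list was used, so every comparison here is a count set beside the same count over all protein-coding genes, with no test. Intervals cover counting error only and treat genes as independent.

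Few ceh genes had a thresholded NHR-25 peak. Thresholded peaks were assigned to 2 of the 58 members, ceh-38 and ceh-5, which is 3.45% (exact binomial 95% interval 0.420% to 11.9%), against 6.05% of all protein-coding genes. The interval includes the share of all genes, so this count is not a result about the family. The strongest 1826 peaks of replicate 1 and of replicate 2 also lay at 2 members each (3.45%), and these were ceh-38 and ceh-5 in both. Over all genes the shares were 5.80% and 5.96%. The 56 other members, which come from every class, had no thresholded peak.

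The peak at ceh-38 was the strongest in the family. This gene (WBGene00000459, chromosome II, 6951526 to 6955409, plus strand) encodes a ONECUT homeodomain protein, of a class that acts together in neurons to switch on genes shared by all neuron types. Its peak, at 6951425 to 6951814, had a signal of 25 in replicate 1, 38.4 in replicate 2 and 58.7 in the pooled list. These values ranked 407, 340 and 370 in their lists, so the peak held a similar place in both replicates. The pooled signal lay above the median of 41.2 over thresholded peaks. The replicate summits were 1 bp and 0 bp from the pooled summit.

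The ceh-38 summit fell at the start of the gene, 1 bp inside 1 of its 11 annotated 5′ ends, in sequence annotated as UTR of ceh-38. The gap between ceh-38 and its upstream neighbour is 225 bp. That neighbour, the paracaspase gene malt-1, runs the other way, and its nearest 5′ end was 320 bp from the summit. None of the 8 motifs searched was within 100 bp. A weaker pooled peak, ranked 15714 with a signal of 7.74, lay in a coding exon of ceh-38, 469 bp from the nearest 5′ end, with replicate signals of 3.33 and 3.23.

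The peak given to ceh-5 was weaker and lay inside other genes. This gene (WBGene00000430, chromosome I, 9727169 to 9728034, plus strand) encodes an Antennapedia-superclass homeodomain protein. The peak, at 9725285 to 9725674, had a signal of 14.8 in replicate 1, 22.9 in replicate 2 and 37.2 in the pooled list, with ranks of 1416, 1322 and 1168. Both replicates thus placed it in the lower part of their strongest 1826, and the pooled signal was under the thresholded median. Its summit was 1689 bp upstream of ceh-5, in a UTR of the regulator of G protein signaling gene eat-16 and in an intron of ocrl-1, a phosphoinositide phosphatase gene whose span also covers the start of ceh-5. The nearest 5′ end of ocrl-1 was 2526 bp away. Which of these genes the peak serves was not tested. An EOR-1 type site, named for a zinc-finger protein, lay 7 bp from the summit.

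A second, weaker pooled peak lay closer to ceh-5, 160 bp upstream of its 5′ end. Its pooled signal was 10.2, rank 10944, and it overlapped a peak of 7.06 in replicate 1 and none in replicate 2.

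No other member came near the threshold. The lowest thresholded signal was 30.3, and the next member in the pooled list was ceh-14 with 13.8 at rank 7025. Between ranks 1827 and 5000 there was the strongest peak of 0 members, against 8.14% of all genes. Of the 58 members, 6 (10.3%, interval 3.89% to 21.2%) had a pooled peak ranked 10000 or better, against 23.1% of all genes. This interval lies below the share of all genes. The rank limit was chosen after the values were seen, it is 1 of 13 such shares computed, and the difference was not tested.

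**Figure D1:**
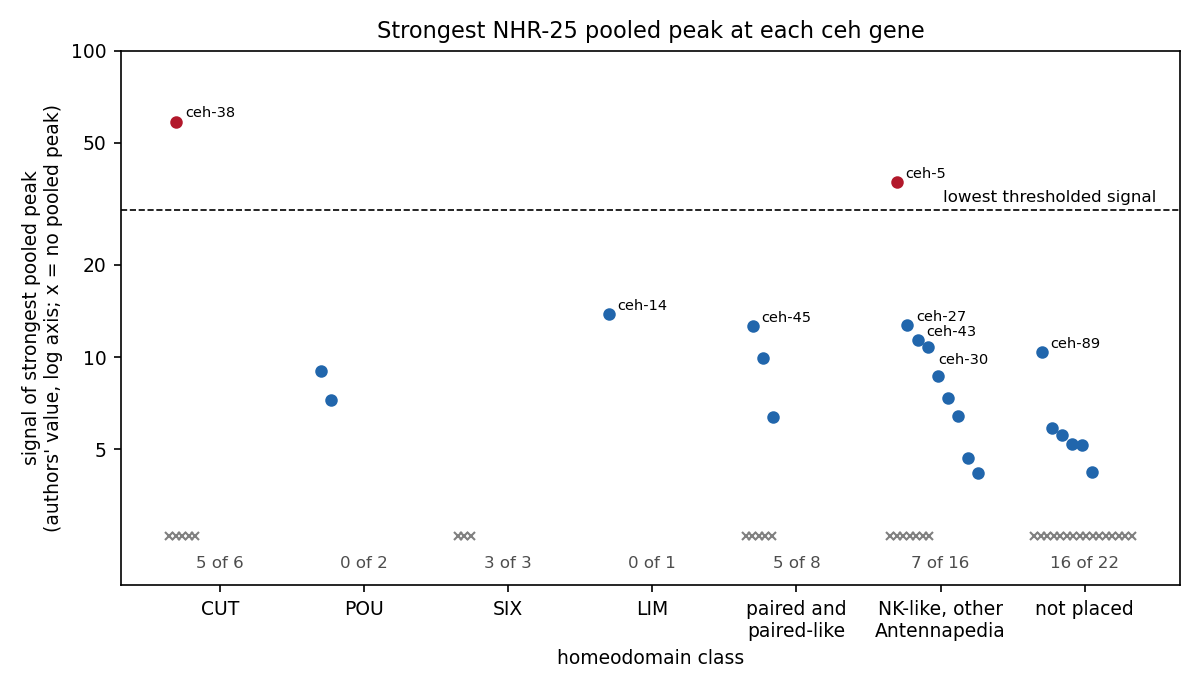
Signal of the strongest pooled peak (log axis, authors' value) at each of the 58 ceh genes, by homeodomain class; red points are members with a thresholded peak, blue points are members with a weaker pooled peak only, and grey crosses, counted at the foot, are members with no pooled peak. Both red points, ceh-38 at 58.7 and ceh-5 at 37.2, lie above the lowest thresholded signal of 30.3, and the next member, ceh-14, is at 13.8.

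Candidate peaks of any strength were then counted. Any pooled peak was assigned to 22 members (37.9%, interval 25.5% to 51.6%), against 46.3% of all genes. Any peak of replicate 1 was assigned to 26 members (44.8%, interval 31.7% to 58.5%) and any of replicate 2 to 27 (46.6%, interval 33.3% to 60.1%), against 44.6% and 49.5%. A peak in both replicate lists was found at 12 members (20.7%, interval 11.2% to 33.4%), against 32.1%. Each of these 4 intervals includes the share of all genes. The plot of shares by list shows them together.

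**Figure D2:**
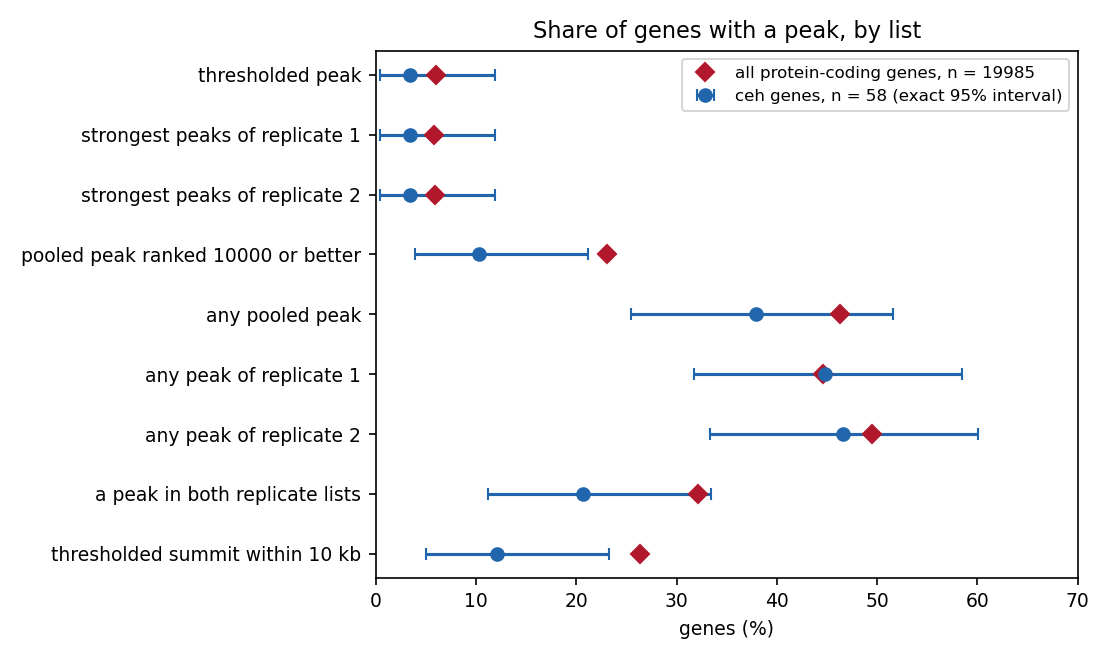
Share of genes (%) with a peak of each kind; blue points are the 58 ceh genes with exact binomial 95% intervals and red diamonds are all 19985 protein-coding genes. The diamond lies inside the interval except for pooled peaks ranked 10000 or better (10.3% against 23.1%) and thresholded summits within 10 kb (12.1% against 26.4%).

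The classes hold few genes, their shares were not tested, and their members are given one by one. A pooled peak was at 1 of 6 CUT genes, against 46.3% of all genes, and 6 genes are too few to show a difference. That gene was ceh-38, and the other 5 had no pooled peak. Of these, ceh-39, which helps worms count their X chromosomes, had a peak of 2.69 in replicate 1 and none in replicate 2, and ceh-48, a neuronal ONECUT gene, had 2.73 in replicate 1 and none in replicate 2. No list held a peak at ceh-21, ceh-41 or ceh-49. The CUT gene that RefSeq names ceh-44 is named cone-1 in the annotation used here, so it is not among the 58. It had no pooled peak, and the thresholded summit 1775 bp from it was nearer to rbc-2.

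Several weak peaks lay at each of the 2 POU genes, as at some other members, such as ceh-27 with 4 pooled peaks and ceh-43 with 3. At ceh-18, which acts in the gonadal sheath cells that restrain oocyte maturation, 5 pooled peaks lay in introns, with signals from 5.62 to 8.99. The strongest of them was at 6.16 in replicate 1 and absent in replicate 2, and the next, at 8.65, was absent in replicate 1 and at 8.06 in replicate 2. At ceh-6, needed for the excretory canal cell, 3 pooled peaks had signals from 6.93 to 7.26. The 2 at 7.26 and 6.93 overlapped the same replicate 1 peak of 7.35 and none in replicate 2, while the peak at 7.02 was seen at 3.54 and 3.83. No peak at these POU genes ranked better than 12981 in the pooled list.

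The LIM gene ceh-14 had a pooled peak and the 3 sine oculis genes did not. Over all genes the share was 46.3%, and so few genes cannot show a difference between classes. The gene ceh-14, a worm Lhx gene that specifies thermosensory and other neurons, had the third strongest pooled peak of the family, 1429 bp upstream of its 5′ end in intergenic sequence. It was at 6.61 in replicate 1 and had no overlapping peak in replicate 2. Of the 3 relatives of fly sine oculis, ceh-32 had 3.03 in replicate 1 alone, ceh-33 had 4.29 in replicate 2 alone, and ceh-34, which specifies pharyngeal neurons, had none.

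Among the 8 paired and paired-like genes, 3 had pooled peaks, also near the 46.3% of all genes given so few. The goosecoid-related gene ceh-45 had a peak of 12.6 at 191 bp from its 5′ end, which was absent in replicate 1 and at 7.43 in replicate 2. The Otx gene ceh-37 had 2 peaks, of which the stronger, at 9.96, overlapped no peak of either replicate. The retinal homeobox relative ceh-8 had 2 at 6.39 and 5.89, and the first was seen at 2.38 and 3.56. The genes ceh-10, a Chx10 relative, ceh-17, a Phox2 relative, and ceh-36, an Otx gene of sensory neurons, had peaks of 3.24, 4.81 and 5.03 in replicate 1 alone. The gene ceh-54 had 3.83 in replicate 2 alone, and ceh-53 had none.

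Of the 16 NK-like and other Antennapedia-superclass genes, 9 had pooled peaks, a share near the 46.3% of all genes given so few. Besides ceh-5, the strongest were at ceh-27, an NK gene, with 12.7, ceh-43, the worm Distal-less gene, with 11.4, and ceh-30, a BarH gene, with 10.8. The ceh-27 peak, 567 bp upstream, was at 5.18 in replicate 1 and 4.08 in replicate 2. The ceh-43 peak lay in an intron, absent in replicate 1 and at 11.3 in replicate 2, while another intronic peak there was seen at 6.57 and 4.71. The ceh-30 peak, in the noncoding gene C33D12.14, was at 4.45 in replicate 1 and absent in replicate 2.

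The tandem BarH partner of ceh-30, ceh-31, had an intronic peak of 7.36 that was seen at 5.96 and 3.04 in replicates 1 and 2. It is the only pooled member summit with the nuclear receptor core within 100 bp, whose middle lay 10 bp from the summit. Weaker pooled peaks lay at ceh-23 with 8.71, at the motor neuron gene ceh-12 with 6.44, at ceh-1 with 4.68 and at the mesoderm gene ceh-51 with 4.19. The pharyngeal muscle gene ceh-22, of the NK type, had 2.25 in replicate 1 and 3.06 in replicate 2 and no pooled peak. The gene ceh-2 had 2.45 and 5.49, and ceh-9 had 6.63 in replicate 1 alone. No list held a peak at ceh-7, ceh-19, ceh-24 or ceh-28.

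The 22 members not placed in a class here, many of them divergent homeobox genes with little known of their roles, held 7 pooled peaks at 6 genes. A pooled peak was thus at 6 of 22, against 46.3% of all genes, and the difference was not tested. The strongest of the 7 was at ceh-89, with 10.4 at 50 bp from its 5′ end. It was seen at 5.39 in replicate 1 and 7.38 in replicate 2. The others were at ceh-86 with 5.89, ceh-100 with 5.58, ceh-58 with 5.19, ceh-91 with 5.15 and ceh-63 with 4.22. Peaks in replicate lists alone were at ceh-62, ceh-74 and ceh-75 in replicate 1 and at ceh-57, ceh-83, ceh-84, ceh-88 and ceh-90 in replicate 2. The best ranked in each were ceh-74 in replicate 1, with 5.72 at rank 7854, and ceh-83 in replicate 2, with 6.18 at rank 12763. No list held a peak at ceh-76, ceh-79, ceh-81, ceh-82, ceh-87, ceh-92, ceh-93 or ceh-99. In all, 17 of the 58 members had no peak in any of the 4 lists. The same count over all genes is not given here, so 17 is not a result about the family. List by list, 37.9% of members had a pooled peak, 44.8% one of replicate 1 and 46.6% one of replicate 2. Over all genes these shares were 46.3%, 44.6% and 49.5%.

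Most weak candidate peaks at these genes were seen in 1 replicate alone. Of 39 member peaks below the threshold, 7 (17.9%) overlapped a peak of both replicates by at least 1 bp, 16 (41%) replicate 1 alone, 13 (33.3%) replicate 2 alone and 3 neither. Among the 15360 pooled peaks of the same signal range, 4.19 to 13.8, that lay within 2 kb of any protein-coding 5′ end, the shares were 31.7%, 17%, 37.9% and 13.3%. Both thresholded member peaks overlapped peaks of both replicates. The thresholded list derives from the replicates, so that overlap is no independent check. The differences in share below the threshold were not tested, and neighbouring member peaks at times overlapped the same replicate peak.

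**Figure D3:**
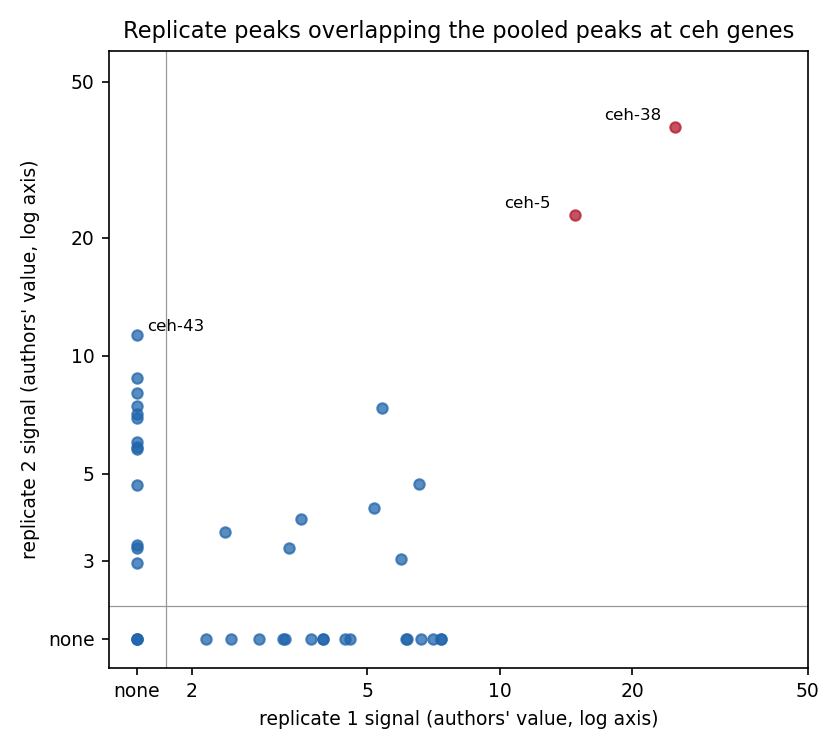
Signal in replicate 1 (x) and replicate 2 (y), log axes and authors' values, of the strongest replicate peak overlapping each of the 41 pooled peaks at ceh genes; red points are thresholded peaks, blue points are weaker ones, and "none" marks no overlapping peak. The points for ceh-38 and ceh-5 stand apart at 25 and 38.4 and at 14.8 and 22.9, and most others lie on a "none" line. Thresholded peaks derive from both replicates, so their place here is no independent check.

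The place of each pooled summit was read from the annotation. Of the 41 pooled summits, 24 (58.5%) were inside the gene they were assigned to, against 51.6% of 20887 assigned pooled summits. Introns held 16, coding exons 7 and a UTR 1. Of the rest, 10 were intergenic, 4 in another protein-coding gene and 3 in noncoding genes. Within 500 bp of the 5′ end lay 16 (39%), against 43.2% of all.

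Sequence upstream of the members varied widely. The median distance from a member's outermost 5′ end to the next protein-coding gene upstream was 1760 bp, against 935 bp over all genes, with lower quartiles of 462 bp and 312 bp. The distance was 0 for ceh-5, ceh-10, ceh-51, ceh-63 and ceh-74. Of the 27 members with at least 2 kb upstream, 0 had a thresholded peak (interval up to 12.8%), against 7.63% of all such genes, and 14 (51.9%, interval 31.9% to 71.3%) had a pooled peak, against 51.2%. A single 5′ end was annotated for 44 members, of which 1 had a thresholded peak (2.27%, interval 0.0575% to 12%), against 4.52% of all such genes. On chromosome X, where 16 members lie, 0 had a thresholded peak (interval up to 20.6%), against 9.52% of genes there. All 3 intervals for thresholded peaks include the share of all genes, so no difference was detectable at these numbers.

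Thresholded summits were next counted over wider surroundings. A thresholded summit lay within 10 kb of a 5′ end of 7 members (12.1%, interval 4.99% to 23.3%), against 26.4% of all genes. These were ceh-38, ceh-5, ceh-24, ceh-89, ceh-90, ceh-1 and ceh-58. The first summits outside the 2 kb window were 4594 bp from ceh-24, a gene of vulval muscles and head neurons, 4977 bp from ceh-89 and 5112 bp from ceh-90. Each was nearer to another gene, namely swan-1, akt-2 and lgc-25, and their signals were 35.5, 39.9 and 36.2. Within 50 kb the shares were 65.5% of members and 69.1% of all genes, and within 200 kb they were 86.2% and 95%. The median distances were 29680 bp and 26439 bp. The 10 kb limit was chosen after the values were seen, neighbouring members share their surroundings, and the difference was not tested.

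**Figure D4:**
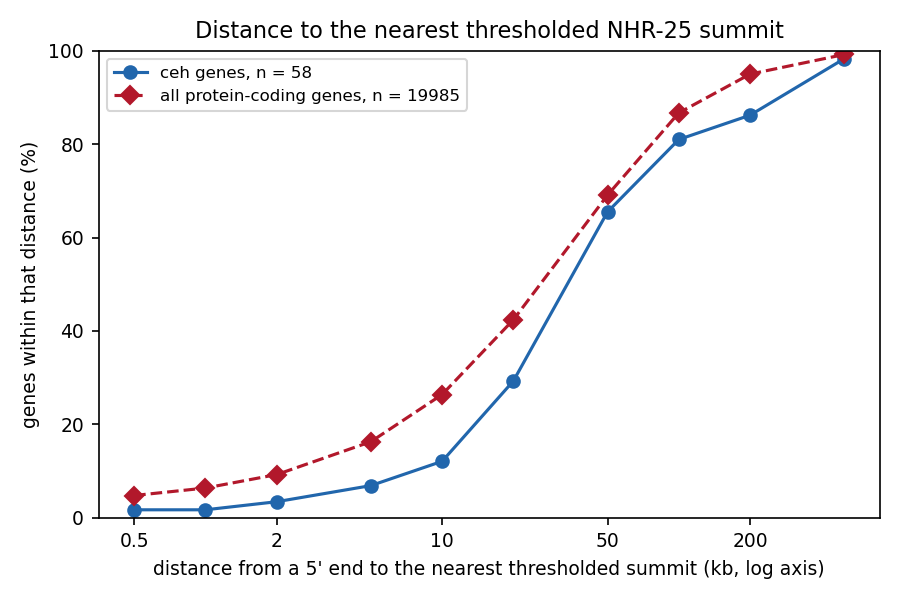
Share of genes (%) whose nearest thresholded summit lies within a given distance (kb, log axis) of a 5′ end; blue, the 58 ceh genes; red, all protein-coding genes. The blue curve is lower at every distance drawn, with 12.1% against 26.4% at 10 kb, 65.5% against 69.1% at 50 kb and 98.3% against 99.2% at 500 kb.

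The NR5A motifs searched had no match near member summits. The NR5A core, searched as CAAGGTC or CAAGGCC on both strands within 100 bp of the summit, was at 0 of 41 pooled member summits (interval up to 8.60%), against 2.48% of all pooled summits and 6.35% of thresholded ones. The interval includes both shares, and a missing match says only that these letters are not in the window. The stricter TCAAGGTCA, found at 0.270% of pooled summits, was also at 0. The shorter core AGGTCA, part of that site, was at 1 (2.44%, interval 0.0617% to 12.9%), against 6.91%.

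The repeat GAGAGAG was at 3 member summits (7.32%, interval 1.54% to 19.9%), of ceh-45, ceh-38 and ceh-100, against 6.77% of all pooled summits and 20.6% of thresholded ones. The EOR-1 type site was at 2 (4.88%, interval 0.596% to 16.5%), the thresholded ceh-5 peak and the weak ceh-100 peak, against 2.91% and 12.2%. The ceh-100 peak overlapped a peak of 5.86 in replicate 2 and none in replicate 1. The E-box CACGTG was at 0, against 4.20%. The homeodomain site TAATTA was at 7 (17.1%, interval 7.15% to 32.1%), against 9.19%, and at 19.5% of windows 500 bp away from the member summits.

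Homeobox genes outside Hox that carry other names were counted in the same way. Of 32 listed, 0 had a thresholded peak (interval up to 10.9%), against 6.05% of all genes, and 13 (40.6%) had a pooled peak, against 46.3%. The interval includes 6.05%, and the pooled share is near that of all genes. The closest to the threshold was hmbx-1, a HMBOX relative, with 29.6 at pooled rank 1920. Its strongest replicate peaks were at 15.2 in replicate 1 and 12.2 in replicate 2. The genes dve-1, a SATB-like factor of the mitochondrial stress response, and lin-11, a LIM gene of the vulva and of neurons, followed with 23.2 and 17.9. These 3 genes were named after their values were seen.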

How the data were processed

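NHR-25 binding was profiled by ChIP-seq in 1 group of 2 replicates. The authors' files are peak lists in narrowPeak layout, per the deposited text records: 1 per replicate, 1 for the pooled replicates, each named there as input for the irreproducible discovery rate procedure, and its thresholded output. The signal of each peak is the authors' deposited value, compared only within a list. No source used here names the peak caller, aligner, threshold or read depth. The labels name a possible control, not analysed here. The ce10 lists were not used.

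Genes were those of Ensembl release 115 on WBcel235, which is ce11, with 29316 distinct protein-coding 5′ ends. No peak end ran past a chromosome. Signal (column 7) and summit (column 2 plus column 10) were read with Python 3.11.15, and exact binomial 95% intervals, for counting error only, came from SciPy 1.17.1. Assignment and motif search were tested on simulated data. Motifs were sought within 100 bp of summits and in windows 500 bp away, on alternating sides. The homeodomain signature was searched with Biopython 1.88, and RefSeq product names were read after its count was known. The members, classes and lists were chosen with earlier results of these data known. Named genes were those with a thresholded peak, the 5 next in pooled signal, and further members to account for all 58. Of the 13 shares set beside all genes, the limits of rank 10000 and of 10 kb were chosen after values were seen, and no adjustment was made. Alternatives covered the window, assignment, 5′ ends, threshold, motif and each replicate alone. RefSeq symbols and 5′ ends, and other motif windows over pooled summits, were added after seeing the data. The sequence of 1 further window is not reported here.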

Additional observations from a re-analysis of the deposited data

How the results depend on the processing

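With a 500 bp window, a 1 kb window or only the peaks above the median signal, 1 member had a thresholded peak and 1 summit was assigned to a member, in each case ceh-38. The shares of all genes were then 3.89%, 4.87% and 3.20%. Each of the following gave 2 members, ceh-38 and ceh-5: a 5 kb window (7.18% of all genes), every gene within 2 kb (9.26%), the outermost 5′ end of each gene (5.63%), merged peaks (6.03%) and peak midpoints (6.04%). So did RefSeq symbols and 5′ ends, with 60 members, and the strongest peaks without replicate 1 (5.96%) and without replicate 2 (5.80%). Members with a pooled peak numbered 15 with a 500 bp window (31.7% of all genes), 17 with 1 kb (39.7%) and 25 with 5 kb (50.6%). They numbered 27 in the list of replicate 2 (49.5%) and 26 in that of replicate 1 (44.6%). Motif counts over the 41 pooled summits were repeated with other windows, chosen after seeing the data. With 200 bp on each side, AGGTCA was at 6 (12.3% of all pooled summits), CACGTG at 1 (7.59%) and TAATTA at 13 (18.2%). With 50 bp, GAGACGCAG was at 1 (1.73%) and TAATTA at 2 (4.36%). Of 56 alternative values, 45 were within 1.5 times the reported count, or at 0 with it. The 56 are not separate checks: the thresholded counts of members and of summits gave equal values, and many motif counts stayed at 0. Motif alternatives planned over the 2 thresholded summits gave 0 throughout. The counts are small and the depth is unknown, so a modest difference in binding at these genes was not detectable.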
